A study of Mus musculus with 2 samples.

Results

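*Krt16*, *Plet1*, *Perp*, *Sfn*, *Pcp4* and *Srxn1* are 6 genes, most of them known from epithelia, that were detected in chondrocytes of the mouse knee. They are 6 of the 32245 gene columns in each of 2 single-cell RNA sequencing tables, and they were selected on earlier results of these data, namely the share of chondrocytes with a value above 0, detection beside *Matn1* and *Epyc*, detection in other cells and the ratio between genotypes. Those values are therefore given as a description, with no test. Cells came from knee joints of female mice 1 month old, pooled from 2 to 3 animals per library, after sorting against CD31, Ter119 and CD45. The control library was from Stat3fl/fl mice, which carry floxed *Stat3* and no Cre. The mutant library was from Acan-Cre+/Cre;Stat3fl/fl mice, in which a tamoxifen-inducible Cre is driven from the aggrecan locus, and tamoxifen was given on postnatal days 2 and 3. Every mouse in both libraries thus carried the floxed allele, and only the mutant carried Cre. With 1 library per genotype there is no measure of the spread between animals, and all intervals below are exact Clopper-Pearson 95% intervals, which cover no error but that of counting.

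There were 4903 control and 1340 mutant cells, with medians of 4344 and 3743 estimated unique molecular identifiers (UMIs, the count of captured RNA molecules). The authors marked 501 control and 332 mutant cells as chondrocytes, all with a value above 0 for *Sox9* and *Col2a1*, and these are called marked cells here. The median depth of marked cells was 5876 estimated UMIs in control and 8595 in mutant mice. None of the marked cells had a value for a globin gene, whereas 84.3% of the other control cells and 11.2% of the other mutant cells did. The 2 libraries shared 2 cell barcodes. *Stat3* itself stood at 142 CPM (estimated UMIs of a gene per 1000000 UMIs of the cells) in marked control cells and 103 CPM in marked mutant cells, a log2 ratio of -0.45, and was above 0 in 52.1% and 47.3% of them. In the other cells the order was opposite, at 58.0 CPM for control and 132 CPM for mutant cells. Counting at the 3′ end need not see a deletion elsewhere in the gene, so these values do not measure how many cells had recombined.

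Chondrocytes make the collagen II and proteoglycan matrix of cartilage under the transcription factor SOX9. Keratins, by contrast, are intermediate filament proteins of epithelia, where an acidic type I keratin pairs with a basic type II partner. *Krt16* encodes a type I keratin known from the hair follicle and from stressed or wounded epidermis. *Plet1* encodes a membrane-anchored surface protein of placenta and of epithelial progenitors. *Perp* encodes a tetraspan membrane protein of desmosomes that is induced by p53, and *Sfn* encodes 14-3-3 sigma, an epithelial 14-3-3 protein that p53 also induces. *Pcp4* encodes a small calmodulin-binding peptide first known from Purkinje neurons. *Srxn1* encodes sulfiredoxin, which repairs over-oxidised peroxiredoxins and is a textbook target of NRF2 and AP-1. *Matn1* (matrilin-1) and *Epyc* (epiphycan) encode matrix proteins of growth cartilage.

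In the Gencode M21 annotation of GRCm38, the members lie on 6 chromosomes. *Krt16* (ENSMUSG00000053797) is at chr11:100246091-100248902 on the minus strand, within the type I keratins. *Plet1* is at chr9:50494525-50505482, *Perp* at chr10:18845020-18857073, *Pcp4* at chr16:96467606-96525793 and *Srxn1* at chr2:152105516-152111376, all on the plus strand. *Sfn* is at chr4:133600556-133602168 on the minus strand. The antisense gene *Plet1os* overlaps *Plet1* and was at 2.52 CPM in marked control and 5.20 CPM in marked mutant cells. *Krt16* shares sequence with other type I keratins. Of the last 400 bases of its transcript, 95 aligned to *Krt17*, with 90.5% identity, and 108 to *Krt14*, with 86.1% identity. *Krt14* was listed at 0 in the marked cells of both libraries and *Krt17* was at 5.79 CPM in control and 5.51 CPM in mutant cells.

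RefSeq promoter windows, from 250 bases before to 50 bases after the start, were at hand for 4 of the 6 members. They were searched on both strands for the AP-1 motif TGANTCA, the antioxidant response motif TGACNNNGC, which NRF2 is known to bind, and the STAT motif TTCNNNGAA. *Plet1* and *Srxn1* are shown because they are the members whose window held a match, with matches in capitals. In *Plet1* the capitals mark an AP-1 match whose first base is at -144 from the start. In *Srxn1* they mark 2 AP-1 matches, at -102 and -45. They also mark an antioxidant response match on the opposite strand, beginning 29 bases into the transcript. These matches do not overlap, but other spellings of the motifs were not searched, so no separation of AP-1 and antioxidant response sites is read from them.
Plet1, GRCm38.p6 chr9:50494275-50494574, plus strand: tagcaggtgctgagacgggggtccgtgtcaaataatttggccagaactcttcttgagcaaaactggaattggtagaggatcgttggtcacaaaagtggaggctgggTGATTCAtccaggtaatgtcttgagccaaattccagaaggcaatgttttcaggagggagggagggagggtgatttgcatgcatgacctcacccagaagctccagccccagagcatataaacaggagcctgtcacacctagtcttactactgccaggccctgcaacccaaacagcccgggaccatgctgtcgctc
Srxn1, GRCm38.p6 chr2:152105274-152105573, plus strand: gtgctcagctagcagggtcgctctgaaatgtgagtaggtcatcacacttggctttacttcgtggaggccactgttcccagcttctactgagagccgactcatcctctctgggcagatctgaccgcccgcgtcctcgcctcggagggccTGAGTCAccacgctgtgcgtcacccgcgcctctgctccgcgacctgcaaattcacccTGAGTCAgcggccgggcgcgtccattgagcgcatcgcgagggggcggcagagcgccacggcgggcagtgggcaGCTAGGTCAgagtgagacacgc
Of 32851 promoter windows of the same length, 7.81% held the AP-1 letters, 12.4% the antioxidant response letters and 8.30% the STAT letters. The windows of *Sfn* and *Pcp4* held none of these letters, and no member window held the STAT letters. A match is a description of the sequence and does not show that a factor binds there.

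*Krt16* was above 0 in 33 of 501 marked control cells (6.59%, interval 4.58 to 9.13%) and in 42 of 332 marked mutant cells (12.7%, 9.27 to 16.7%). Its level in the summed UMIs of those cells was 32.9 CPM and 143 CPM. *Plet1* was above 0 in 61 control cells (12.2%, 9.44 to 15.4%), while 81 mutant cells had it (24.4%, 19.9 to 29.4%), with levels of 38.6 CPM and 134 CPM. For both genes the share was higher in the mutant library, though the marked mutant cells were also deeper. With every cell thinned to 2349 UMIs, the shares were 4.81% and 7.88% for *Krt16* and 8.32% and 14.4% for *Plet1*, and the intervals of the 2 libraries overlapped for each. This thinning kept 457 of the control and 292 of the mutant marked cells.

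The p53-induced genes were of a similar frequency. *Perp* was above 0 in 67 marked cells of the control library (13.4%, 10.5 to 16.7%) and in 43 of the mutant library (13.0%, 9.53 to 17.05%), at 29.8 CPM and 27.0 CPM. *Sfn* was above 0 in 58 control cells (11.6%, 8.91 to 14.7%) and 65 mutant cells (19.6%, 15.4 to 24.3%), at 43.7 CPM and 80.7 CPM. After thinning the *Perp* shares were 5.25% and 3.08%, and the *Sfn* shares 5.91% and 11.0%. The *Sfn* share was higher in the mutant library at both depths, and its intervals overlapped after thinning. The *Perp* intervals overlapped at both.

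*Pcp4* was above 0 in 55 control cells (11.0%, 8.38 to 14.05%) and 49 mutant cells (14.8%, 11.1 to 19.0%), at 37.0 CPM and 63.2 CPM. *Srxn1* was the most widely detected member, above 0 in 209 control cells (41.7%, 37.4 to 46.2%) and 159 mutant cells (47.9%, 42.4 to 53.4%), at 229 CPM and 442 CPM. After thinning, the shares were 5.69% and 5.82% for *Pcp4* and 29.1% and 34.6% for *Srxn1*. In both libraries *Srxn1* was detected more often than any other member, and in the control library the intervals of *Plet1*, *Perp*, *Sfn* and *Pcp4* all overlapped.

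**Figure D1:**
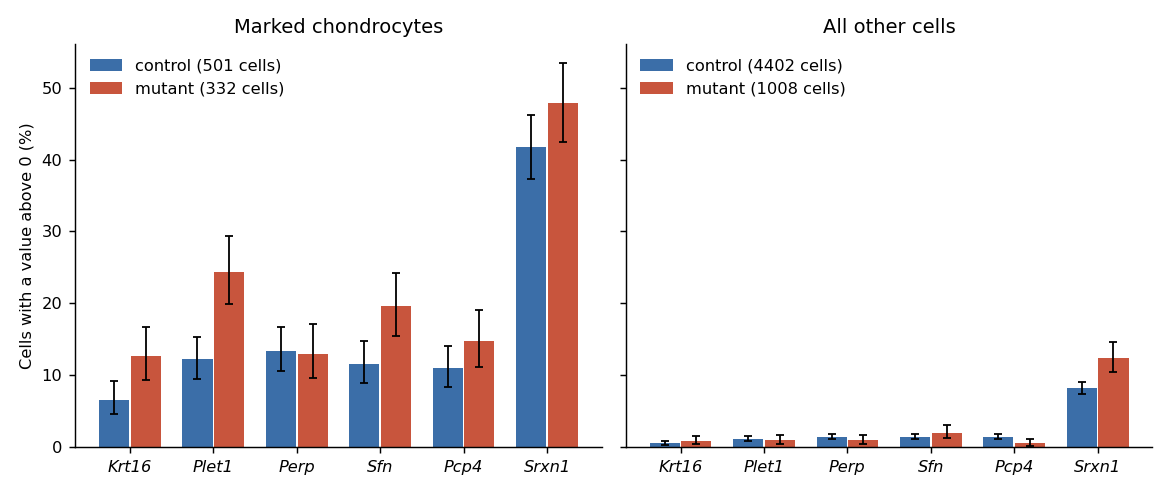
Share of cells with a value above 0 for each member (vertical axis, percent), in marked cells (left) and all other cells (right) of the control and mutant library; bars start at 0 and error bars are exact 95% intervals for counting error. In other cells *Srxn1* reached 8.16% and 12.4%, and no other member exceeded 1.98%.

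Outside the marked cells the members other than *Srxn1* were rare. *Srxn1* was above 0 in 359 other control cells (8.16%) and 125 other mutant cells (12.4%). *Krt16* was above 0 in 22 of 4402 other control cells (0.4998%) and 8 of 1008 other mutant cells (0.794%), and *Plet1* in 50 (1.14%) and 9 (0.893%). *Perp*, *Sfn* and *Pcp4* were above 0 in 0.496 to 1.98% of the other cells. All 6 members were at least 2-fold higher in marked than in other cells of both libraries, where 16.5% of the 9108 genes tested were in the control library and 7.55% in the mutant library. The log2 ratio of marked over other cells was 3.05 and 5.57 for *Krt16* and 3.07 and 5.08 for *Plet1*, in control and mutant. The other cells were shallower, with medians of 4132 and 2591 UMIs, and with all cells thinned to 1064 UMIs the *Krt16* share was 2.87% of marked against 0.0994% of other control cells, and 4.11% against 0.253% in the mutant library. At this depth *Perp* no longer stood apart in the mutant library, with 2 of 316 marked cells (0.633%) and 4 of 792 other cells (0.505%).

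Most of the other control cells with *Krt16* or *Plet1* had *Sox9* and *Col2a1* but no mark. There were 512 such unmarked cells, all with a value for a globin gene, and *Krt16* was above 0 in 17 of them (3.32%, 1.95 to 5.26%), *Plet1* in 41 (8.01%), *Perp* in 8.79%, *Sfn* in 6.84%, *Pcp4* in 8.40% and *Srxn1* in 28.1%. In 2949 control cells at 0 for *Col2a1*, *Krt16* was above 0 in 2 cells (0.0678%), *Plet1* in 4, *Pcp4* in 5, *Perp* in 8, *Sfn* in 23 and *Srxn1* in 180 (6.10%). Among 607 such mutant cells none had *Krt16*, which allows a share of cells with a UMI of up to 0.494%. *Pcp4* was above 0 in 2 of them, *Perp* in 4, *Plet1* in 7 (1.15%), *Sfn* in 12 and *Srxn1* in 86 (14.2%). Cells with *Col2a1* held 99.4% of all *Krt16* UMIs of the control library and 100% of those of the mutant library.

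Erythroid-like cells gave a comparison at a similar depth, after the authors had taken out ambient RNA. Across 1243 of these control cells, whose median depth was 5282 UMIs, *Krt16*, *Plet1* and *Pcp4* were above 0 in 2 cells each, *Perp* in 1 and *Sfn* in 3. *Srxn1* was above 0 in 45 of them (3.62%), which is not read as a level of free RNA. The marked control cells were above these shares for every member. The mutant library had only 12 erythroid-like cells, too few for the same comparison.

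The cells were also grouped into 22 clusters, of which 3 were chondrocyte-like by their markers. The members were concentrated in cluster 4, whose 10 leading genes included all 6 of them along with *Il11*, *Barx2*, *C1qtnf3* and *Bdkrb1*. Since the clusters were made from the same genes, these levels are a description. Cluster 4 held 225 of the marked control and 128 of the marked mutant cells. Among those, 26.2% of control and 55.5% of mutant cells had *Plet1*, and 75.1% and 84.4% had *Srxn1*. Their median depth was 6058 UMIs in control and 13538 UMIs in mutant cells, and the part of depth in these shares was not tested. Cluster 12, led by *Msmp*, *Cytl1* and *Crispld1*, had no control cell with *Krt16* or *Plet1* among 476, which allows a share of cells with a UMI of up to 0.630%. Its control cells were shallower than those of cluster 4, with medians of 3401 and 5713 UMIs, and 1 of its 121 mutant cells had *Krt16*. Cluster 16, with *Panx3*, *Il17b*, *Epyc*, *Matn1* and *Ihh* among its leading genes, had *Krt16* in 5 of 148 control cells and *Plet1* in 3. *Pcp4* was spread more widely than *Krt16* and *Plet1*, at 18.7 CPM in cluster 12 and 23.3 CPM in cluster 16 of the control library, against 60.9 CPM in cluster 4. The value in cluster 12 came from 12 of 476 cells, and in its 120 marked cells *Pcp4* was at 3.85 CPM. *Sfn* was at 4.51 CPM in cluster 12, 21.8 CPM in cluster 16 and 64.4 CPM in cluster 4 of the control library.

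**Figure D2:**
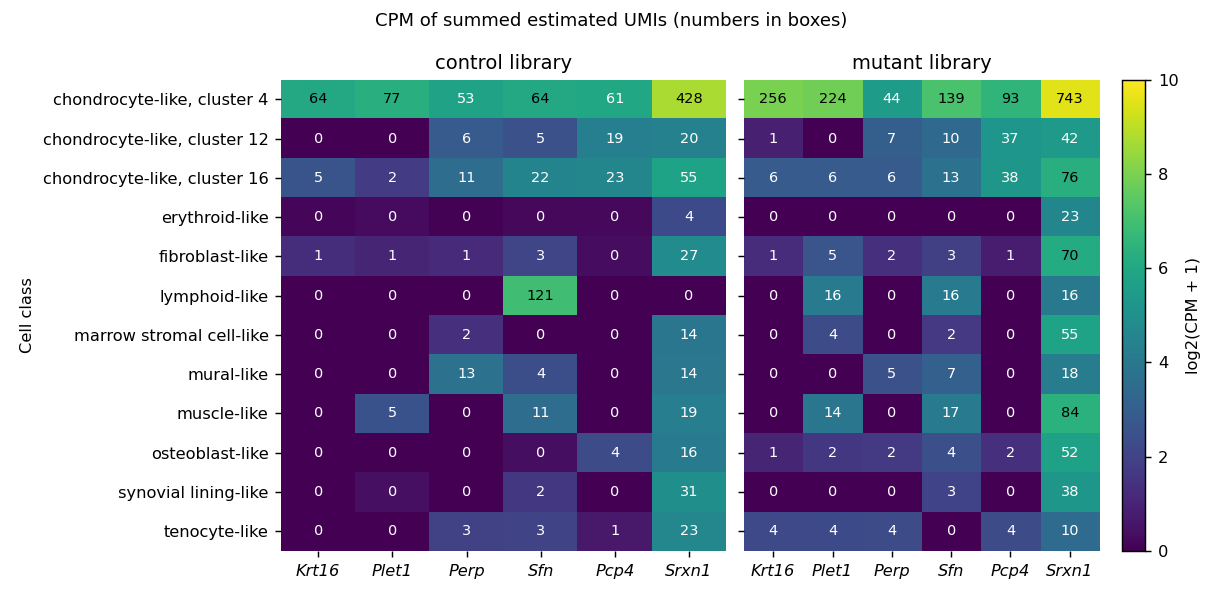
CPM of each member (columns) in each named cell class (rows) of the control (left) and mutant (right) library; the number in a box is the CPM and the colour its log2(CPM + 1). Cluster 4 is highest for all members in both libraries except for *Sfn* in control lymphoid-like cells, where 1 of 7 cells carried the gene.

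Within marked cells, detection usually rested on a few molecules per cell. Among cells above 0, the median for *Krt16* was 1.97 estimated UMIs per control cell and 2.99 per mutant cell. *Krt16* was the most uneven member. Its highest 3 mutant cells held 76.0, 70.0 and 41.0 UMIs and made up 42.7% of its total, against 27.6% from the highest 3 control cells, which held 11.97, 7.97 and 7.97. The median for *Plet1* was 0.988 in control and 3.99 in mutant cells, with the highest 3 cells giving 15.1% and 14.4% of its total. *Srxn1* was the most even, with the highest 3 cells giving 6.25% and 8.12% of its total.

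**Figure D3:**
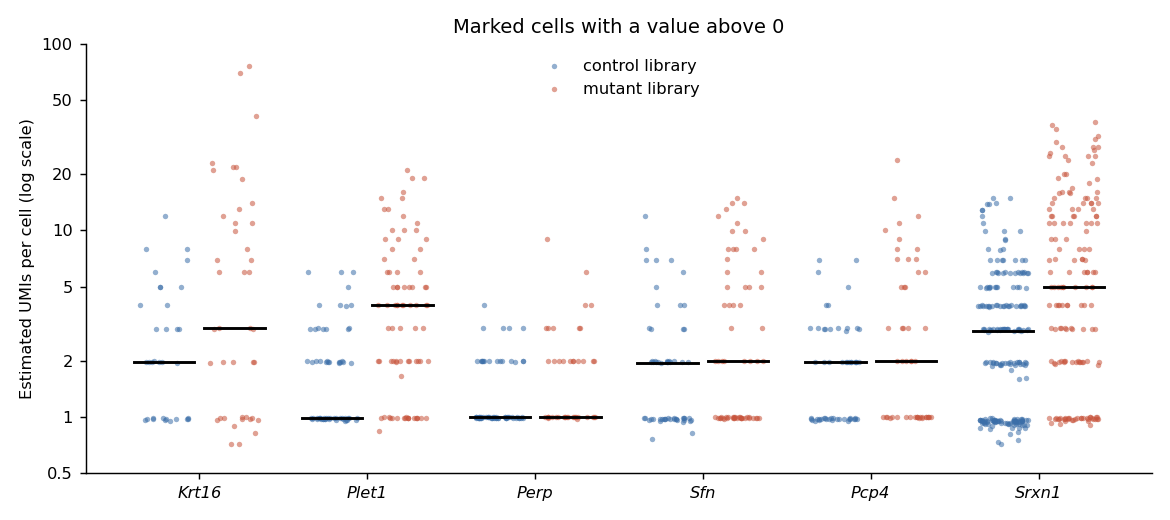
Estimated UMIs per cell (vertical axis, log scale) in marked cells above 0 for each member, 1 point per cell, in the control and mutant library; black lines are medians over the cells shown, and horizontal jitter has no meaning. The highest points are *Krt16* in 3 mutant cells at 76.0, 70.0 and 41.0 UMIs.

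The members were often found in the same cells. Of 61 marked control cells with *Plet1*, 54 (88.5%) also had *Srxn1*, against 35.2% of those without *Plet1*, and the 54 were 25.8% of the cells with *Srxn1*. In the mutant library 73 of 81 (90.1%) did, against 34.3%. *Krt16* and *Plet1* shared 10 control cells, which is 30.3% of the cells with *Krt16* and 16.4% of those with *Plet1*. In the mutant library they shared 24 cells, 57.1% and 29.6%. *Krt16* and *Sfn* shared 7 control and 27 mutant cells, the latter 64.3% of the mutant cells with *Krt16*. At least 4 members were found in 15 marked control cells and 44 marked mutant cells. Cells with a member were deeper, with medians of 6953 UMIs for control and 14905 for mutant cells with *Krt16*, against 5745 and 8302 for those without it, and the part of depth in these shared counts was not tested.

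The genes most like each member were ranked over marked cells by Pearson's r of log2 values in each library, taking the lower of the 2. There were 5636 candidate genes and 501 and 332 cells, which share a library and differ in depth, so r is a description. For *Krt16* the nearest were *Plaur* (r = 0.26 in control and 0.32 in mutant), the urokinase receptor, then *Fosl1*, *Hivep3*, *Dusp5* and *Cd44*. For *Plet1* they were *Srxn1* (0.39 and 0.51), *Fosl1* (0.31 and 0.37), *Rcan1*, *Hivep3* and *Micall1*. *Fosl1*, which encodes the AP-1 subunit FRA-1, was among the nearest 5 of 4 members, namely *Krt16*, *Plet1*, *Sfn* and *Srxn1*. *Dusp5*, a phosphatase of ERK, was near *Krt16*, *Perp* and *Sfn*.

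*Srxn1* had the closest neighbours, *Cd44* (0.50 and 0.56), the hyaluronan receptor, *Hbegf* (0.48 and 0.47), a ligand of the EGF receptor, *Fosl1* (0.46 and 0.59), *Micall1* and the EGF receptor inhibitor *Errfi1*. *Perp* was nearest to *Rcan1*, *Sgk1*, *Pcolce2*, *Dusp5* and *Tm4sf1*, with r from 0.22 to 0.29, and *Sfn* to *Dusp5*, *Fosl1*, *Zyx*, *Micall1* and *Rgcc*. *Pcp4* had a set of its own apart from *Pcolce2*, which was also near *Perp*. It comprised *Sfrp5* (0.26 and 0.30), a secreted inhibitor of WNT signalling, *Scube2*, *Smoc2*, *Pcolce2* and *Chst11*, a chondroitin sulfotransferase.

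Cells with *Epyc* had more of every member than cells without it. *Epyc* was above 0 in 263 marked control cells (52.5%) and 109 marked mutant cells (32.8%). *Krt16* stood at 44.1 CPM in control cells with *Epyc* and 12.7 CPM in those without, and at 314 and 6.67 CPM in the mutant library, log2 ratios of 1.72 and 5.36. *Sfn* was at 53.4 and 26.0 CPM in the control and 142 and 31.6 CPM in the mutant library (1.01 and 2.14). *Perp* was at 37.7 and 15.5 CPM in the control and 40.3 and 16.4 CPM in the mutant library (1.23 and 1.25). *Srxn1* was at 252 and 187 CPM in control cells, then 635 and 288 CPM in mutant cells (0.43 and 1.14). *Plet1* and *Pcp4* differed less, with log2 ratios of 0.71 and 0.77 and of 0.26 and 0.44.

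At least 2-fold higher with *Epyc* were 3 of the 6 members in the control library, where 4.8% of all genes tested were, and 4 of 6 in the mutant library, where 4.33% were. Cells with *Epyc* were deeper, with medians of 7233 against 4543 UMIs for control cells, and 12399 against 7004 for mutant cells. When *Epyc* and the members were both read from thinned cells, the *Krt16* ratios were 1.05 and 1.89 and that of *Pcp4* in the mutant library was -0.64. *Perp* was then at 1.75 and 0.42, *Sfn* at 0.91 and 1.96 and *Srxn1* at 0.11 and 0.62, so that 2 of 6 members were at least 2-fold higher in each library. No share of all genes stands beside this count in thinned cells. The *Krt16* share in thinned mutant cells was 20.6% (11.5 to 32.7%) with *Epyc* and 4.37% (2.11 to 7.88%) without.

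The split by *Matn1* gave a different picture in the 2 libraries. *Matn1* was above 0 in 108 marked control cells (21.6%) and 63 marked mutant cells (19.0%). In the control library *Plet1* was at 50.9 CPM in cells with *Matn1* and 33.4 CPM in those without, and *Sfn* at 63.0 and 35.5 CPM. *Krt16* (26.0 and 35.9 CPM), *Perp* (22.8 and 32.7 CPM), *Srxn1* (174 and 252 CPM) and *Pcp4* (20.3 and 44.0 CPM) were lower in cells with *Matn1*. No member was 2-fold higher, where 3.04% of all genes tested were. In the mutant library all 6 were higher in cells with *Matn1*, from *Srxn1* at 539 and 404 CPM to *Sfn* at 185 and 40.5 CPM. *Krt16* there was at 205 and 119 CPM and *Plet1* at 179 and 116 CPM. *Perp* and *Sfn* were at least 2-fold higher, where 3.18% of all genes were. Cells with *Matn1* were deeper, with medians of 8149 against 5406 and 15404 against 7912 UMIs. More control cells with *Matn1* than without it had *Krt16* (9.26 and 5.85%), *Perp* (14.8 and 13.0%), *Pcp4* (12.04 and 10.7%) and *Srxn1* (43.5 and 41.2%), whose CPM went the other way, so no order is read from these shares. In thinned cells *Perp* in the control library turned from a log2 ratio of -0.50 to 0.21, while the signs of the other members stayed, with *Pcp4* in the mutant library at 0.072. Few cells stand behind these thinned ratios, so no stable order is read from their signs. Among 48 thinned control cells with *Matn1*, *Krt16* and *Perp* were in 2 each and *Pcp4* in 1. Among 31 such mutant cells *Pcp4* was in 1 (3.23%), against 6.13% of those without *Matn1*.

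**Figure D4:**
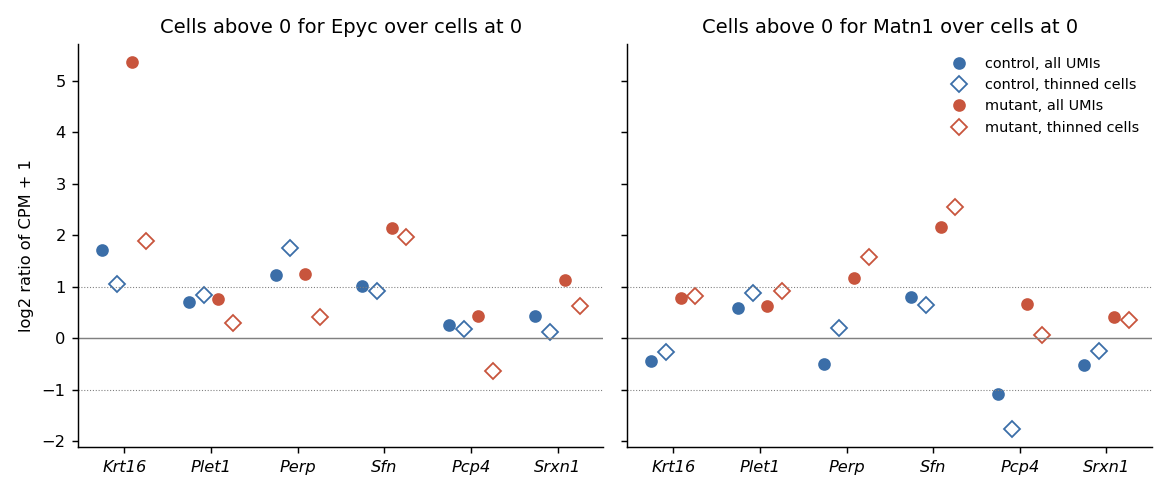
Log2 ratio of CPM + 1 (vertical axis) of each member in marked cells above 0 for *Epyc* (left) or *Matn1* (right) over marked cells at 0, in the control and mutant library; filled circles use all UMIs, open diamonds thinned cells, and dotted lines mark 2-fold. *Krt16* with *Epyc* in the mutant library falls from 5.36 to 1.89 on thinning.

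Lists of other epithelial genes were set against the limit on detection, which 9108 of all 32245 gene columns passed. Of 14 other keratins only *Krt10* passed the limit of 5% of marked cells in either library, at 9.22 CPM in control and 14.6 CPM in mutant cells. *Krt17*, *Krt8* and *Krt18* were at 0.946 to 7.16 CPM. *Krt14*, *Krt6a*, *Krt6b* and *Krt20*, named after their values were seen, were listed at 0 in both libraries, and *Krt6a* and *Krt6b* are the type II partners that *Krt16* is known to pair with in epidermis. Of 15 genes of epithelial junctions 4 passed the limit. These were *Epcam* (9.91 and 46.3 CPM), which encodes an epithelial adhesion molecule, *Dsg2* (6.76 and 14.7 CPM), *Jup* (18.7 and 24.1 CPM) and *Tjp1* (72.6 and 52.0 CPM). *Cdh1*, which encodes E-cadherin, was at 0.326 CPM in each library. Of 11 regulators of epithelia 3 passed, namely *Klf4*, *Klf5* and *Trp53*, and *Klf4* was high at 1222 and 1283 CPM. The 7 markers fixed for epithelial cells summed to 14.5 CPM in control and 48.5 CPM in mutant marked cells, and 2 of them were at 0 in each library. In cells with *Krt16* or *Plet1* these markers summed to 22.2 CPM for control and 89.0 CPM for mutant cells, against 12.7 and 21.3 CPM in marked cells without them. *Epcam* is among the 7 and made up most of the sum over all marked cells of each library. These sums are therefore not a reading apart from *Epcam*. *Epcam* had log2 ratios of 1.34 and 2.07 in this split, and *Krt17*, which did not pass the limit, of 1.58 and 3.88. The other genes of these lists that passed did not follow them. *Krt10* was at -0.88 and -1.15, *Jup* at 0.51 and 0.40, *Dsg2* at 0.38 and -1.32 and *Tjp1* at -0.04 and -0.69. *Klf4* was at 0.13 and -0.71, *Klf5* at 0.49 and -0.70 and *Trp53* at -0.89 and -1.35.

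Lists for the relatives of the other members were also looked at in the cells with *Krt16* or *Plet1*, which were 84 marked control and 99 marked mutant cells. These cells were deeper than those without either gene, with medians of 6651 against 5667 UMIs for control and 12981 against 7175 for mutant cells. The part of depth in the ratios of this split was not tested. Among all 9108 genes tested, 2.39% of genes for control cells and 4.91% for mutant cells were at least 2-fold higher where *Krt16* or *Plet1* was found, and the median log2 ratio was -0.13 and -0.18. Of 10 p53 targets that passed, 1 was 2-fold higher in the control (*Plk2*, 1.28) and 2 in the mutant library (*Plk2* and *Sesn2*, both 1.08), and the medians were 0.18 and 0.22. Of the same 10, 2 were at least 2-fold lower in the control (*Ccng1*, -2.06, and *Zmat3*, -1.64) and 1 in the mutant library (*Phlda3*, -1.09). *Cdkn1a*, the p21 gene, had ratios of 0.31 and -0.26 and *Btg2* of 0.45 and 0.36. Of 12 NRF2 targets that passed, none was 2-fold higher in either library and 1 was 2-fold lower in the control, with medians of 0.06 and 0.17. Among them *Txnrd1* had ratios of 0.75 and 0.51 and *Fth1* of -0.23 and -0.89. The 6 other 14-3-3 genes had medians of 0.13 and 0.31, and the calmodulin genes and their regulators of -0.04 and -0.04.

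The same cells were low in genes of articular and superficial cartilage. Of 11 such genes, 8 in each library were at least 2-fold lower in cells with *Krt16* or *Plet1*, with medians of -1.21 and -2.17. Of all genes tested, 11.6% were at least 2-fold lower among control and 14.1% among mutant cells, and the counts of lower genes that follow stand beside the same shares. *Prg4*, which encodes lubricin, had log2 ratios of -0.91 and -4.94, *Crispld1* of -2.00 and -2.17 and *Cytl1* of -4.18 and -4.28. *Pcolce2* alone had ratios above 0, at 0.51 and 1.38. Of 6 genes of the resting zone 3 were 2-fold lower among control cells, and 2 among mutant cells, such as *Clu* (-3.02 and -3.50) and *Gas1* (-3.10 and -2.60). Of 11 prehypertrophic and hypertrophic genes 8 passed the limit on detection, and *Ihh*, *Col10a1* and *Mmp13* did not. Of these 8, 6 were at least 2-fold lower among control cells, and 4 among mutant cells, where *Panx3* (0.90) and *Runx2* (0.33) had ratios above 0. *Ibsp*, *Sp7* and *Alpl* of this list are also among the osteoblast markers. *Ibsp* had ratios of -3.99 and -3.31, and *Spp1* of -3.47 and -2.26.

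Genes of growth cartilage behaved differently. Of 16 such genes none was 2-fold higher in control cells with *Krt16* or *Plet1*, with a median of 0.12, whereas 10 were in mutant cells, with a median of 1.09. The list includes *Matn1* and *Epyc*, which were used in selecting the members. Both are among the 10 and had the highest mutant ratios of the list, at 2.37 and 2.13, with -0.24 and -0.03 in control cells. *Col9a3* had ratios of 0.24 and 1.4996, *Col9a1* of 0.13 and 1.09, *Snorc* of 0.15 and 0.82 and *Col11a1* of 0.03 and 0.66. Markers of some other cell types moved with the split and those of others moved little. The 7 osteoblast markers summed to 700.0 CPM in mutant cells with *Krt16* or *Plet1* and 6505 CPM in those without, and to 157 and 1101 CPM in the control library. The 6 markers of synovial lining summed to 155 and 4294 CPM in the mutant and 1479 and 2800 CPM in the control library. The 5 Schwann cell markers went the other way, at 209.6 CPM with and 12.1 CPM without in the control library and 32.3 and 5.45 CPM in the mutant library. Fibroblast and marrow stromal markers were lower with *Krt16* or *Plet1* in both libraries. Tenocyte markers moved less, at 2236 CPM with and 2548 CPM without in the control library and 1470 and 1649 CPM in the mutant library. Mural markers were at 628 and 617 CPM in the control and 453 and 292 CPM in the mutant library. Markers of erythroid, neutrophil and lymphoid cells summed to at most 3.504 CPM in each of these groups, and those of macrophage, endothelial and muscle cells to at most 18.5 CPM. The part of other cell types among the marked cells in these ratios was not tested. The 16 genes of dissociation stress had medians of -0.36 and -0.72, with none at least 2-fold higher in either library and 2 and 4 at least 2-fold lower. Of 8 genes of dividing cells that passed, 6 were at least 2-fold lower in control cells with *Krt16* or *Plet1*, while in mutant cells 2 were 2-fold higher and none lower. All 8 passed the limit through the control library only. The 2 higher genes, *Birc5* and *Pclaf*, were above 0 in 2.41% and 1.20% of marked mutant cells, at 4.46 and 4.81 CPM. No difference between the libraries is read from so few cells.

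Between genotypes, *Krt16* was 4.34-fold higher in marked mutant than in marked control cells, a log2 ratio of 2.09, and *Plet1* 3.46-fold higher, a log2 ratio of 1.77. *Srxn1* (0.95), *Sfn* (0.87) and *Pcp4* (0.76) were higher by less than 2-fold, and *Perp* was at -0.13. At least 2-fold higher were therefore 2 of 6 members, where 4.74% of the 9108 genes tested were, and 6.43% of all genes were at least 2-fold lower. The median of the members was 0.91 and that of all genes -0.15. Without the 3 highest cells of each library the *Krt16* ratio was 1.75, and in thinned cells it was 1.51 and that of *Plet1* 1.43. The sign of *Perp* depended on the setting, since it was 0.03 relative to the median gene and 0.01 over all *Sox9* and *Col2a1* cells.

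*Pcp4l1*, a relative of *Pcp4* named after its value was seen, was at 15.1 CPM in marked control and 2.26 CPM in marked mutant cells, a log2 ratio of -2.30. It was the 1 of 5 genes of the calmodulin list at least 2-fold lower, and the median of that list was -0.34.

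The marked cells of the 2 libraries also differed in other ways. Osteoblast markers summed to 924 CPM in marked control and 4167 CPM in marked mutant cells, and the mitochondrial share exceeded 5% in 3.99% and 20.2% of them. Within cells of at most 5% mitochondrial counts the *Krt16* ratio was 2.04 and the *Plet1* ratio 1.77. Within the marked cells of cluster 4, a setting chosen after the data were seen, the ratios were 1.92 for *Krt16*, 1.46 for *Plet1*, 0.77 for *Srxn1*, 0.84 for *Sfn*, 0.52 for *Pcp4* and -0.24 for *Perp*. The genotype cannot be told apart from the animals, the sort or the run, since each genotype was 1 pool and 1 library.

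**Figure D5:**
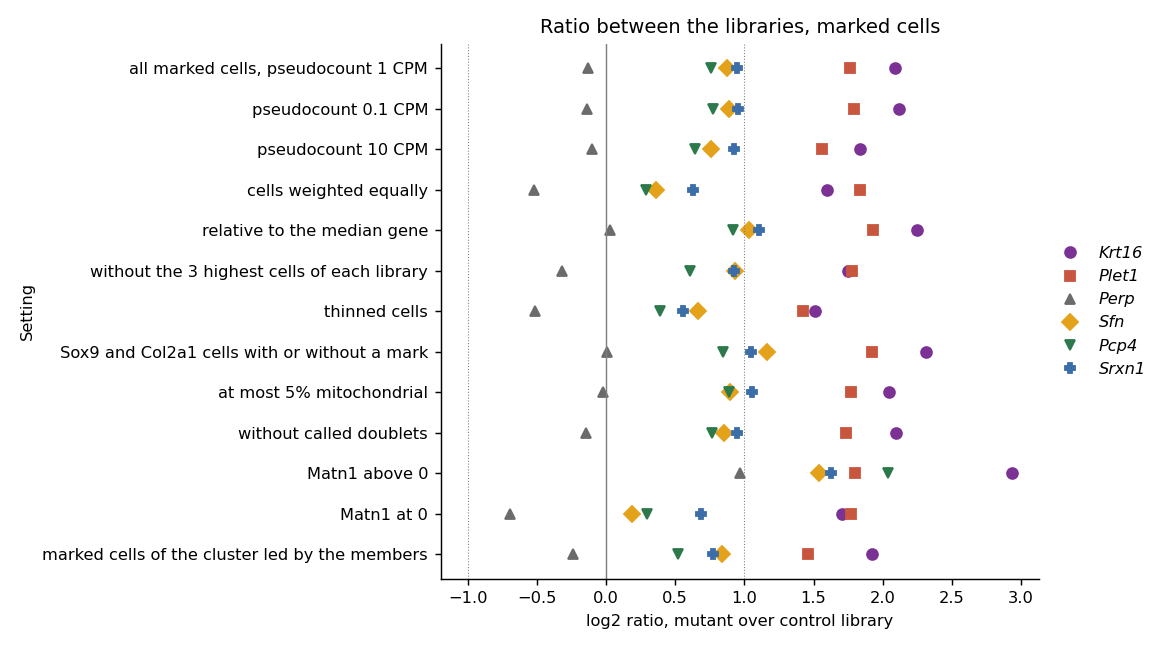
Log2 ratio of the mutant over the control library (horizontal axis) for each member in marked cells, under each setting (rows); the top row is the ratio reported and dotted lines mark 2-fold. *Krt16* and *Plet1* lie right of the 2-fold line in every row, from 1.51 to 2.93 and from 1.43 to 1.93.

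Some other genes of the members' families were also at least 2-fold higher in the mutant library, where 4.74% of all genes tested were. *Epcam* was at a log2 ratio of 2.11 in marked cells, and *Dsg2* at 1.01. Of the 12 NRF2 targets that passed, 3 were at least 2-fold higher in the mutant library, namely *Fth1* (1.39), *Ftl1* (1.29) and *Hmox1* (1.42), the last named after its value was seen. Of the 10 p53 targets only *Cdkn1a* was (1.07), and of the 6 other 14-3-3 genes none was. The medians were 0.27, 0.34 and -0.19, against -0.15 for all genes.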

How the data were processed

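Cells of the knee joint were profiled with droplet 3′ sequencing in 2 libraries, 1 per genotype. Reads had been aligned by the authors to mm10 with STAR 2.7.3a within Partek Flow and counted as UMIs against Gencode genes. A knee plot set the cells, and SoupX took out ambient RNA. What was deposited per gene is a log2 value of CPM + 1 in each cell. The authors also deposited an estimated count of UMIs per cell, the number of expressed genes as a score, mitochondrial and ribosomal content as a percent, and a column that marks selected cells. Estimated UMIs were recovered from the values and the cell total, and 74.9% of control and 97.3% of mutant values lay within 0.1 of a whole number, so no count model was used.

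UMIs were summed over cells, scaled to CPM and compared as log2 ratios with a pseudocount of 1 CPM, called only by a size of 2-fold, over genes above 0 in at least 5% of marked cells of either library. With 1 library per genotype no test was made. Cells were clustered with scanpy 1.11.5 (2000 variable genes, 30 components, 15 neighbours, Leiden resolution 1, seed 1). Naming a cluster took at least 3 markers of 1 type, each found in 10% of its cells and 2-fold higher than elsewhere. Scrublet, at an expected rate of 0.05, called 74 control and 2 mutant cells (0.149%), so in the mutant library it may not have worked; called cells were kept in the main results. Thinning drew UMIs without replacement to the 10% quantile of depth, after rounding. A share of 0 was limited with 3 counts.

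Named genes were the members, *Stat3*, *Sox9*, *Col2a1*, *Matn1*, *Epyc*, the 5 genes most like each member among those above 0 in at least 10% of marked cells of both libraries, and up to 4 genes of highest CPM per list; others are the leading genes of clusters or were named after their values were seen. The members and lists were chosen with earlier results of these data known. The ratio calculation was tested on simulated data. Coordinates are from Gencode M21 and promoter windows from RefSeq, both on GRCm38.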

Additional observations from a re-analysis of the deposited data

Results flagged for a closer look

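The split of marked cells by *Matn1* had opposite signs in the 2 libraries for 4 members, a difference between groups that was not tested since each genotype was 1 library. The log2 ratio of cells with over cells without *Matn1* for *Krt16* was -0.45 among control cells but 0.78 among mutant cells. It was -0.50 and 1.16 for *Perp*, -1.08 and 0.67 for *Pcp4*, and -0.53 and 0.41 for *Srxn1*. In thinned cells *Perp* among control cells was at 0.21, the same sign as in mutant cells, and *Pcp4* among mutant cells was at 0.072. Of the thinned cells with *Matn1*, 2 of 48 control cells had *Perp* and 1 of 31 mutant cells had *Pcp4*.

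The ratio between genotypes had opposite signs in marked and in other cells for 3 members, and this difference was not tested either. For *Krt16* the log2 ratio of the mutant over the control library was 2.09 in marked and -0.43 in other cells. For *Plet1* it was 1.77 and -0.25, and for *Pcp4* it was 0.76 and -1.29. In the other cells these genes were at 1.53 to 5.20 CPM, and the other control cells included 512 unmarked cells with *Sox9* and *Col2a1*, against 3 in the mutant library.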

How the results depend on the processing

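No paired analysis was possible because each genotype had 1 library, and for the same reason no replicate could be left out. Across 12 settings the log2 ratio between genotypes kept its sign for every member but *Perp*, which was above 0 in 3. Among marked cells with *Matn1*, the ratio was 2.93 for *Krt16*, 0.97 for *Perp*, 1.54 for *Sfn*, 2.04 for *Pcp4* and 1.62 for *Srxn1*, and 5 members were at least 2-fold higher. Among cells without *Matn1* it was 0.19 for *Sfn*. Relative to the median gene, whose shift was -0.16, 4 members were at least 2-fold higher, and so were 4 over all *Sox9* and *Col2a1* cells, where *Srxn1* was above 0 in 34.8% of control cells. No share of all genes stands beside these counts of 4 or the 5 with *Matn1*. They show only that the number of members called moved with the setting. The genes at least 2-fold higher were 254 and those lower 350 at a limit of 10% of cells, and 908 and 1249 with no limit, against 432 and 586.

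Thinning lowered the detection shares. In mutant cells they became 7.88% for *Krt16*, 14.4% for *Plet1*, 3.08% for *Perp*, 11.0% for *Sfn*, 5.82% for *Pcp4* and 34.6% for *Srxn1*. In control cells they became 8.32% for *Plet1*, 5.25% for *Perp*, 5.91% for *Sfn*, 5.69% for *Pcp4* and 29.1% for *Srxn1*. In thinned cells the *Epyc* ratio was 1.05 in control and 1.89 in mutant cells for *Krt16*, 0.42 for *Perp* and -0.64 for *Pcp4* in mutant cells. The *Matn1* ratio was 0.21 for *Perp* and -1.75 for *Pcp4* in control and 0.072 for *Pcp4* in mutant cells. Only 2, 1 and 1 thinned cells with *Matn1* had the gene in these 3 ratios. The ratio of marked over other cells was 2.14 for *Perp* in the control library, and 4.83 for *Krt16*, 3.72 for *Plet1*, 0.27 for *Perp*, 2.89 for *Sfn* and 4.07 for *Pcp4* in the mutant library.

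That ratio also moved with the cells it was set against. Against control cells without globin it was 5.08 for *Krt16*, 4.71 for *Plet1*, 4.28 for *Sfn* and 3.35 for *Pcp4*. Against cells without *Col2a1* it was 5.002 for *Krt16*, 5.10 for *Plet1*, 4.42 for *Perp*, 4.43 for *Sfn*, 4.996 for *Pcp4* and 4.54 for *Srxn1* in the control and 7.17 for *Krt16* in the mutant library. The 5.08 and the 7.17 for *Krt16* are set by the pseudocount, since none of 689 and none of 607 cells had the gene. Against a floor of 3 UMIs over those cells, *Krt16* was at least 29.3-fold and at least 153-fold higher in marked cells. The 5.002 rests on 2 cells with the gene. A pseudocount of 10 CPM gave 1.71 for *Krt16*, 1.82 for *Plet1*, 1.57 for *Perp*, 1.95 for *Sfn* and 1.63 for *Pcp4* in the control library. In the mutant library it gave 3.67, 3.47, 1.63, 2.59 and 2.67 for the same genes, and 4.28 for the *Krt16* ratio by *Epyc*. A pseudocount of 0.1 CPM gave 5.28 for *Pcp4* in the mutant library. The cause of these shifts was not tested beyond what each setting changes.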
